A study of Homo sapiens with 9 samples.

Results

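Lysosome and autophagy genes were followed in t(17;19)-positive leukemia cells whose MEF2C enhancer had been targeted with Cas9. The 42 genes were taken by their GENCODE release 44 symbols from the 62700 genes of the deposited tables, and 39 of them were among the 14436 genes with enough counts to be tested. They code for 9 proteases, 8 glycosidases, 6 sulfatases or lipid hydrolases, 3 soluble proteins that are not enzymes, 7 membrane proteins, 3 subunits of the proton pump, 3 transcription factors and 3 proteins of the autophagosome. The cells were HAL-01, a line grown from an acute lymphoblastic leukemia of the B lineage (B-ALL) with the TCF3::HLF fusion, and they had been made to express Cas9 and GFP. The treated groups carried a guide against the HLF motif in the TCF3::HLF-bound enhancer of MEF2C, sgRNA_96 or sgRNA_97, and both are called enhancer KO in the labels. The control group carried the scrambled guide SCR1. Each group had 3 libraries, all from day 13, so 6 KO libraries were compared with 3 controls, and all come from this single cell line.

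The lysosome is the acidic compartment in which cells break down material taken up from outside and material delivered by autophagy. A proton pump, the V-ATPase, acidifies it, soluble hydrolases cut proteins, sugars, sulfate esters and lipids, and heavily glycosylated membrane proteins line and transport across its wall. Transcription factors of the MiT/TFE family, TFEB, TFE3 and MITF, bind a short E-box element found before many of these genes, and TFEB and TFE3 are held in the cytoplasm by the kinase complex mTORC1 when nutrients are plentiful. In B cells, cathepsin S trims the invariant chain during antigen presentation on MHC class II.

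Total counts per library ranged from 15212462 to 29777361, the deepest being SCR1 replicate 1. MEF2C itself stood at 536 to 559.6 CPM, counts per 1000000 counts of the scaled library, in SCR1 and 495 to 553 CPM in enhancer KO. The log2 fold change of -0.12 did not pass the threshold in edgeR (adjusted p = 0.0620) but did in DESeq2 (adjusted p = 0.0206), the method of the study. An exact two-sided permutation test over the 84 arrangements gave p = 0.0476. The paper counts MEF2C among the genes lower in its RNA-seq of the enhancer KO, 13 days after transduction. It also reports less MEF2C RNA by RT-qPCR and less protein by Western blot when this motif was disrupted. All 12 B-ALL markers passed the filter. Of these, 4 (MME, DNTT, BLNK and CD34) were higher in KO and 0 lower, beside 10.1% and 10.6% of all genes tested. CD34 averaged only 0.0618 CPM in SCR1 and 0.572 CPM in KO. It passed the filter through the KO libraries alone, so its call is no support. Of 10 monocyte or macrophage markers, CD163, FCGR3A, MARCO and VCAN were at 0 in every library, and the summed level of the list was 24.1 to 29.3 CPM in KO against 23.6 to 25.0 CPM in SCR1. ITGAM, the integrin alpha M chain in that list, was higher in KO at a log2 fold change of 0.74 (edgeR adjusted p = 0.000162), whereas CSF1R, the most abundant gene of the list and the only other one tested, averaged 17.2 CPM in SCR1 and 14.8 CPM in KO (-0.21, edgeR adjusted p = 0.124). The 8 granulocyte markers summed to 5.10 to 7.93 CPM in KO against 4.96 to 6.18 CPM in SCR1, with ELANE, PRTN3 and FCGR3B at 0, MPO higher (1.08 on the log2 scale) and S100A8 lower (-1.70). The 7 T cell markers summed to at most 0.737 CPM, with CD3D, CD3E, CD3G and TRBC1 at 0, and the 6 stromal markers to 17.4 to 20.9 CPM in KO against 19.6 to 24.1 CPM in SCR1. Nearly all of the stromal sum was PDGFRB (mean 20.7 CPM in SCR1 and 18.9 CPM in KO), and COL1A2, COL3A1, LUM and DCN were at 0 in every library. The part of such genes in the values below was not tested, and in bulk RNA fewer cells of a type and less RNA per cell cannot be told apart.

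Lysosome and autophagy genes changed little in enhancer KO, and those that did went both ways. Of the 39 genes tested, 4 were higher (CTSS, SCARB2, ASAH1 and TPP1) and 5 were lower (CTSH, GLA, SQSTM1, NPC1 and CTSC) at an adjusted p under 0.05, where adjusted p stands for the quasi-likelihood test in edgeR, corrected across every tested gene by Benjamini-Hochberg. The 9 genes are 23.1% of those tested, and 20.7% of all 14436 genes passed the same threshold, 10.1% higher and 10.6% lower, so the share lay near that of the whole transcriptome. At an unadjusted p under 0.05 the 39 genes counted 13 (33.3%), beside 33.5% of all genes. No gene changed by a factor of 2. The median log2 fold change of the 39 genes was 0.02 against 0.00 over all genes, with 20 values above 0 and 19 below. The median size of the change, without its sign, was 0.10 on the log2 scale against 0.15 over all genes, and 20 of the 39 genes (51.3%) had an estimate within 0.1 of 0 against 36.0% of all genes. All genes were not matched to the 39 by level, and the part of counting error in rarer genes in these differences was not tested. In 9 genes the KO and SCR1 libraries did not overlap, with KO above in CTSS, TPP1, SCARB2, ASAH1, HEXA and LIPA and below in CTSC, GLA and SQSTM1. That is also 23.1% of the genes tested, beside 20.3% of all genes. Fewer genes passed under some other settings: 4 without SCR1 replicate 1 (CTSS, SCARB2, TPP1 and SQSTM1), and GLA alone when TPM, the abundance per transcript length, was tested with limma. The share of all genes called was then 10.2% and 5.85%.

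**Figure D1:**
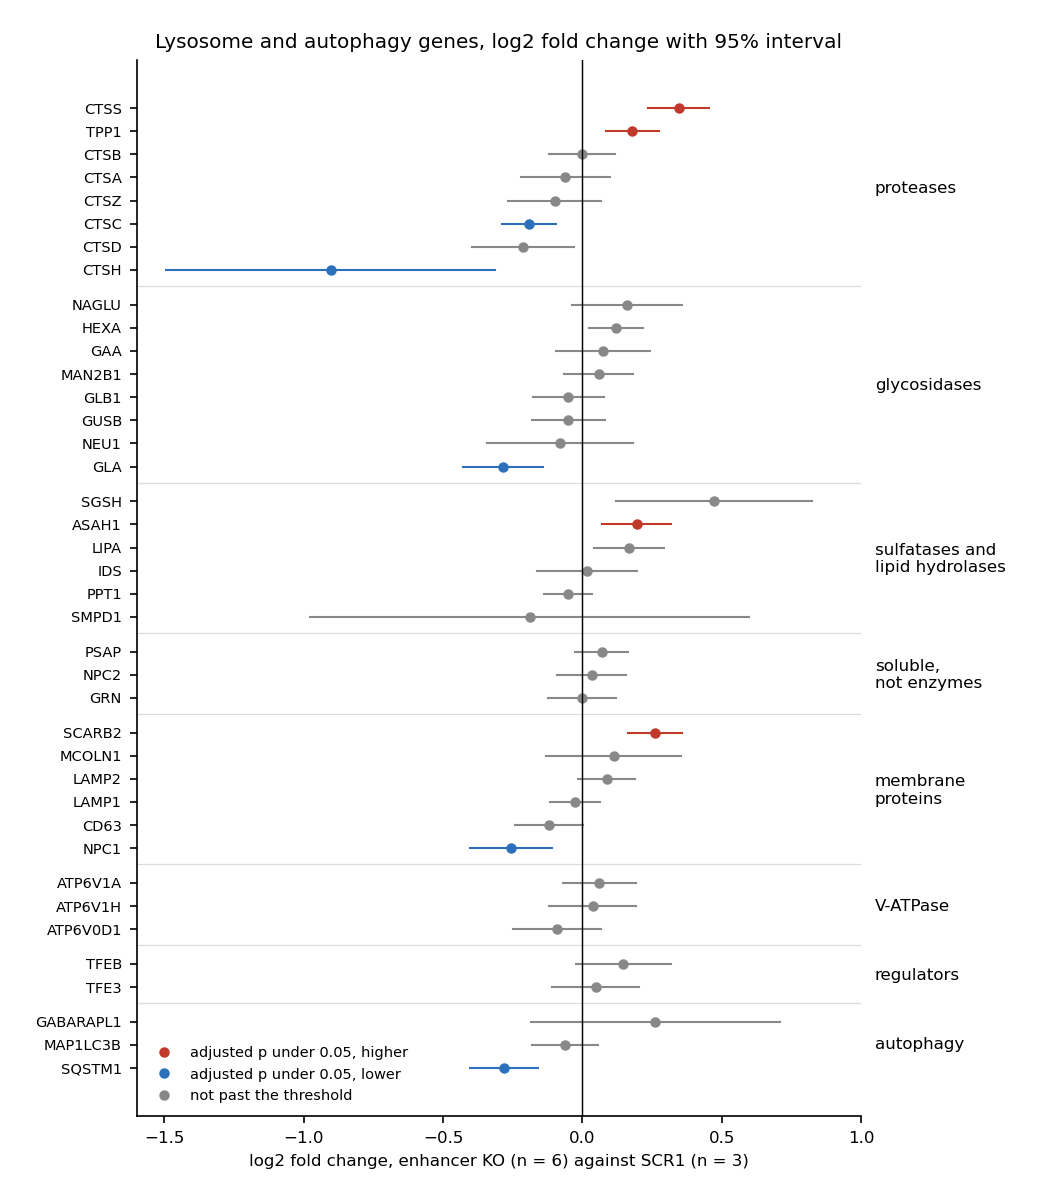
Log2 fold change of enhancer KO (6 libraries) against SCR1 (3 libraries) for the 39 genes that passed the filter, grouped by role; points are edgeR estimates and bars their 95% intervals, with the 4 genes past the threshold above 0 in red, the 5 below 0 in blue and the 30 others in grey. Most points lie within 0.2 of 0 and CTSH, at -0.90, has a wide interval.

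The transcription factors that drive the lysosomal program did not pass the threshold. TFEB (chr6:41683978-41736259, minus strand) was measured at 38.5, 44.3 and 44.8 CPM in the SCR1 libraries and between 41.0 and 53.6 CPM in enhancer KO, with a median of 48.8. The KO range began inside that of the controls and reached above it, and the log2 fold change was 0.15 ± 0.08 (SE, adjusted p = 0.213). TFE3 (chrX:49028726-49043410, minus strand) was measured at 25.0, 26.6 and 27.3 CPM in SCR1 and at 25.1 to 31.2 CPM in KO with a median of 26.5, and its groups overlapped (log2 fold change 0.05 ± 0.07 SE, adjusted p = 0.689). MITF, the family member known from melanocytes and osteoclasts, had 9 counts in all libraries together, at most 3 in any of them, and was not tested. A count of 0 allows a level of up to 0.102 to 0.199 CPM in these libraries, taken as 3 counts, and covers counting error only.

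The element that this family binds was looked for in the 300 bases from 250 before to 50 after the RefSeq start of each gene (GRCh38.p14), with 32 of the 42 genes in that table. The E-box CACGTG, which reads the same on both strands, occurred in 8 of the 32 genes (25%) and in 8.78% of all 27305 genes with such a window. The longer form TCACGTGA, which contains the E-box, occurred in 5 of them (15.6%) and in 1.18% of all genes. Copies were counted only where the 30 bases around them lay within the 250 bases before the start. By that count LAMP1 held 5 copies of CACGTG, CTSA and GAA 2 each, and ATP6V0D1, CD63, CTSD, MCOLN1 and NEU1 1 each. With 1 flanking base, TCACGTG on either strand occurred in 7 of them (21.9%) and in 4.49% of all genes, CTSD and NEU1 being the further pair, and CD63 held the core alone. These 7 genes are shown because they carry the element that TFEB and TFE3 bind. Each line gives 30 bases of the coding strand with the E-box in capitals.
LAMP1: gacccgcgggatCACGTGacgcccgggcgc
ATP6V0D1: cccccttatggtCACGTGaggcgcttgcgc
GAA: gggaggccgcgtCACGTGacccaccgcggc
MCOLN1: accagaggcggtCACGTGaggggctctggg
CTSA: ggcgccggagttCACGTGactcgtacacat
CTSD: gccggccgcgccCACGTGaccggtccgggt
NEU1: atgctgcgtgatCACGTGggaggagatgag

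These stretches lie at chr13:113297199-113297228 (plus strand) for LAMP1, chr16:67481199-67481228 (minus) for ATP6V0D1, chr17:80101493-80101522 (plus) for GAA and chr19:7522571-7522600 (plus) for MCOLN1. Those of CTSA, CTSD and NEU1 lie at chr20:45891298-45891327 (plus), chr11:1763957-1763986 (minus) and chr6:31862930-31862959 (minus). The E-box began 28 bases before the RefSeq start in LAMP1, 59 in ATP6V0D1, 76 in GAA, 41 in MCOLN1, 25 in CTSA, 47 in CTSD and 126 in NEU1. Of the 8 genes with an E-box in the window 0 passed the threshold in edgeR, beside 20.7% of all genes tested, and so small a number shows little against that share. Their log2 fold changes ran from -0.21 for CTSD to 0.11 for MCOLN1. Of the 9 genes that did pass, 7 were in the promoter table, CTSS and ASAH1 being without a window. None of those 7 windows held CACGTG, beside the 8.78% of all genes, and so few windows show little against that share. The palindrome TTACGTAA bound by HLF and its relatives was in 0 of the 32 windows and in 0.147% of all genes, and its variant TTACATAA, searched on both strands, in 1 window, that of TFEB (3.13% against 1.13% of all genes). A match describes the letters of the window and is no evidence of binding.

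Among the proteases, 2 were higher and 2 lower of the 8 tested, with a median log2 fold change of -0.08. CTSS, the cathepsin that processes the invariant chain (ENSG00000163131.12, chr1:150730079-150765957, minus strand), had the lowest adjusted p of the class. It was measured at 45.0, 46.4 and 46.9 CPM in the SCR1 libraries and at 54.6 to 61.4 CPM in the KO libraries, with a median of 58.9. Every KO library lay above every control, the mean was 1.27 times as high, and the log2 fold change was 0.35 ± 0.05 (SE, adjusted p = 0.000277). TPP1, a tripeptidyl peptidase lost in a childhood neuronal ceroid lipofuscinosis (chr11:6612768-6619448, minus strand), was measured at 88.1, 91.0 and 91.0 CPM in SCR1 and at 98.1 to 108 CPM in KO with a median of 102. Its groups did not overlap either, although the rise was smaller, 0.18 ± 0.04 (SE, adjusted p = 0.00956).

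CTSC, which activates granule serine proteases (chr11:88265069-88359684, minus strand), was measured at 81.9, 86.4 and 87.3 CPM in SCR1 and at 71.3 to 77.3 CPM in KO with a median of 74.3. All KO libraries lay below all controls and the log2 fold change was -0.19 ± 0.05 (SE, adjusted p = 0.00742). Without SCR1 replicate 1 it was -0.18 and missed the threshold (edgeR adjusted p = 0.0524). CTSH, an aminopeptidase (chr15:78921058-78949574, minus strand), had the estimate farthest from 0 of the 39 genes, -0.90 ± 0.28 (SE, adjusted p = 0.0308), at a very low level of 18 to 87 counts per library. The controls stood at 2.36, 2.95 and 3.02 CPM and the KO libraries at 0.977 to 2.58 CPM with a median of 1.31, and the highest KO library, sgRNA_97 replicate 1, lay above the lowest control. The call was lost in 7 of the 9 fits that left out 1 library, with adjusted p values up to 0.131.

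The other cathepsins did not pass. CTSD, the major aspartic protease of lysosomes (chr11:1752752-1764573, minus strand), stood at 50.9, 53.9 and 62.8 CPM in SCR1 and at 44.2 to 56.7 CPM in KO with a median of 45.4. Only sgRNA_96 replicate 1 and sgRNA_97 replicate 4 lay among the controls, the log2 fold change was -0.21 ± 0.09 (SE, adjusted p = 0.0942), and without sgRNA_96 replicate 1 it passed (-0.26, adjusted p = 0.0216). CTSB, a cysteine protease (chr8:11842524-11869533, minus strand), stood at 49.0, 52.9 and 53.0 CPM in SCR1 and at 47.2 to 54.2 CPM in KO with a median of 52.2, and the estimate was 0.00 with a 95% interval from -0.12 to 0.12. CTSA and CTSZ, carboxypeptidases, had log2 fold changes of -0.06 and -0.10. CTSL was listed at 0 counts in all 9 libraries.

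Of the 8 glycosidases only GLA passed, and the class median was 0.00. GLA, alpha-galactosidase A, the enzyme deficient in Fabry disease (chrX:101393273-101408012, minus strand), was measured at 25.8, 26.5 and 29.6 CPM in SCR1 and at 21.4 to 23.2 CPM in KO with a median of 22.7. The groups did not overlap, and the log2 fold change was -0.29 ± 0.07 (SE, adjusted p = 0.00722). It was called in 16 of 17 alternatives and missed the threshold without SCR1 replicate 1, its highest control (-0.22, adjusted p = 0.0750). GLA overlaps RPL36A on the other strand, and the sources used here do not say if reads were counted by strand. HEXA, the alpha chain of beta-hexosaminidase, lay at 62.4 to 66.0 CPM in KO and 57.4 to 60.2 CPM in SCR1, without overlap, yet its adjusted p was 0.0748 at a log2 fold change of 0.12. The other 6 enzymes (GAA, GLB1, GUSB, MAN2B1, NAGLU and NEU1) ran from -0.08 for NEU1, a sialidase, to 0.16 for NAGLU, an enzyme of heparan sulfate breakdown.

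Among the 6 sulfatases and lipid hydrolases, ASAH1 alone passed, and the class median was 0.09. ASAH1, acid ceramidase (chr8:18055992-18084998, minus strand), was measured at 53.2, 55.6 and 55.9 CPM in SCR1 and at 57.7 to 67.5 CPM in KO with a median of 62.6. The groups did not overlap, but the lowest KO library, sgRNA_97 replicate 4, lay close to the controls (log2 fold change 0.19 ± 0.06 SE, adjusted p = 0.0252). Leaving out any 1 SCR1 library took the adjusted p to between 0.0590 and 0.136. LIPA, the acid lipase of cholesteryl esters, lay at 52.6 to 60.9 CPM in KO against 45.8 to 52.6 CPM in SCR1, with an estimate of 0.17 and an adjusted p of 0.0579. SGSH, a heparan sulfatase, had the largest positive estimate of the 39 genes, 0.47 with a 95% interval from 0.12 to 0.82 and an adjusted p of 0.0535, on 65 to 128 counts per library. IDS (0.02), PPT1 (-0.05) and the weakly expressed SMPD1 (-0.19, 9 to 27 counts per library) did not pass.

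The 3 soluble proteins of the lumen that are not enzymes did not pass the threshold. PSAP, the precursor of the saposins that present lipids to hydrolases, had a log2 fold change of 0.07, NPC2, which binds cholesterol, 0.03 and GRN, progranulin, 0.00. Their 95% intervals together ran from -0.12 to 0.17, and the lowest adjusted p was 0.300, for PSAP.

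Membrane proteins split between a rise in SCARB2 and a fall in NPC1 of the 6 tested, around a class median of 0.03. SCARB2, also LIMP-2, the receptor that carries glucocerebrosidase to the lysosome (chr4:76158737-76234536, minus strand), was measured at 86.3, 88.7 and 91.3 CPM in SCR1 and at 99.7 to 110.5 CPM in KO with a median of 107. No KO library reached down to the controls, the mean was 1.20 times as high, and the log2 fold change was 0.26 ± 0.05 (SE, adjusted p = 0.00083). NPC1, which exports cholesterol from the lysosome (chr18:23506184-23586506, minus strand), was measured at 47.9, 56.5 and 61.1 CPM in SCR1 and at 42.2 to 48.6 CPM in KO with a median of 46.5. The lowest control, SCR1 replicate 4, lay within the KO range, and the fall of 0.26 ± 0.07 on the log2 scale (SE, adjusted p = 0.0162) was not called without SCR1 replicate 1 (adjusted p = 0.0844) or replicate 3 (adjusted p = 0.0992).

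The glycoproteins that make up most of the lysosomal wall did not pass. LAMP1 (chr13:113297239-113323672, plus strand) stood at 92.9, 93.7 and 96.2 CPM in SCR1 and at 89.5 to 95.6 CPM in KO with a median of 92.0, and the 95% interval of its log2 fold change ran from -0.12 to 0.06. LAMP2, one form of which serves chaperone-mediated autophagy (chrX:120426148-120469365, minus strand), stood at 122, 129 and 129 CPM in SCR1 and at 124 to 143 CPM in KO with a median of 137. The KO range ran above that of the controls but began inside it (log2 fold change 0.09 ± 0.05 SE, adjusted p = 0.227). CD63, a tetraspanin of late endosomes, had an estimate of -0.12 and MCOLN1, the calcium channel TRPML1, 0.11. CD68, a macrophage marker, had 0 to 10 counts per library and was not tested.

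The V-ATPase subunits ATP6V0D1, ATP6V1A and ATP6V1H had log2 fold changes of -0.09, 0.06 and 0.04, and none passed. Among the autophagy genes, SQSTM1, the receptor p62 that links ubiquitinated cargo to the autophagosome (chr5:179806398-179838078, plus strand), fell. It was measured at 96.99, 97.4 and 109 CPM in SCR1 and at 75.7 to 89.1 CPM in KO with a median of 84.6. Every KO library lay below every control, and the log2 fold change was -0.28 ± 0.06 (SE, adjusted p = 0.00274). SQSTM1 shares its locus with MGAT4B and MRNIP on the other strand. MAP1LC3B, the LC3 protein coupled to autophagosome lipid, stood at 89.9, 91.7 and 98.1 CPM in SCR1 and at 81.5 to 98.4 CPM in KO with a median of 88.0 (log2 fold change -0.06 ± 0.06 SE, adjusted p = 0.476). Of the 6 KO libraries 4 lay below every control, 1 within their range and 1 above every control. GABARAPL1, of the same ATG8 family, was rare at 1.99, 2.96 and 3.16 CPM in SCR1 and 2.47 to 3.91 CPM in KO with a median of 3.26, and its estimate of 0.26 had an interval from -0.18 to 0.71.

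**Figure D2:**
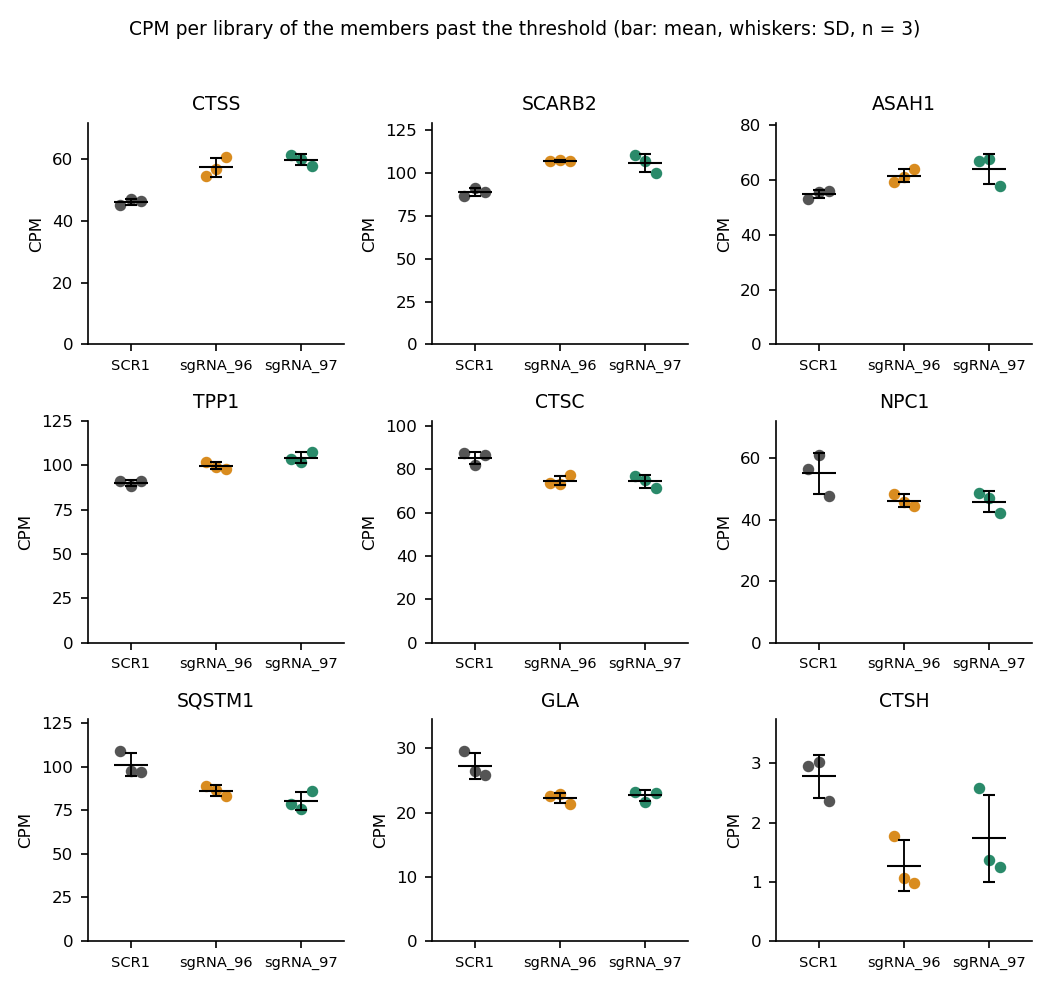
CPM in each library of the 9 genes past the threshold, by guide, on axes that start at 0; bars are means and whiskers the SD of 3 libraries. In CTSS, SCARB2, ASAH1 and TPP1 the 6 libraries of sgRNA_96 and sgRNA_97 lie above the SCR1 libraries, in CTSC, GLA and SQSTM1 below them, and in NPC1 and CTSH the groups overlap.

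The guides were then compared separately, both with the same 3 SCR1 libraries. With sgRNA_96, 6 of the 39 genes passed (15.4%, beside 11.2% of all genes), CTSS and SCARB2 higher (5.78% of all genes) and CTSC, CTSH, GLA and SQSTM1 lower (5.41% of all genes). With sgRNA_97, 7 passed (17.9%, beside 15.1% of all genes), CTSS, SCARB2, TPP1 and ASAH1 higher (7.35% of all genes) and CTSC, GLA and SQSTM1 lower (7.76% of all genes). CTSS had log2 fold changes of 0.32 ± 0.06 and 0.37 ± 0.06 (SE) with sgRNA_96 and sgRNA_97, and SCARB2 0.27 ± 0.05 and 0.25 ± 0.05. SQSTM1 fell by 0.23 ± 0.06 and 0.34 ± 0.07 on the log2 scale, GLA by 0.30 ± 0.08 and 0.27 ± 0.08, and CTSC by 0.19 ± 0.06 and 0.20 ± 0.06. NPC1, called over both guides together, missed the threshold with each (adjusted p = 0.0670 and 0.0506). Tested against each other, sgRNA_97 and sgRNA_96 differed in 0 of the 39 genes in edgeR and in 0 in DESeq2, beside 3 of all genes (0.0208%) in edgeR and 8 (0.0294%) in DESeq2. At an edgeR p under 0.05 before adjustment only ATP6V0D1 differed (lower with sgRNA_97 by 0.18 on the log2 scale), beside 3.48% of all genes. The differences ran from -0.20 for GABARAPL1 to 0.45 for CTSH, both with few counts, and the interval for CTSH ran from -0.29 to 1.19.

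**Figure D3:**
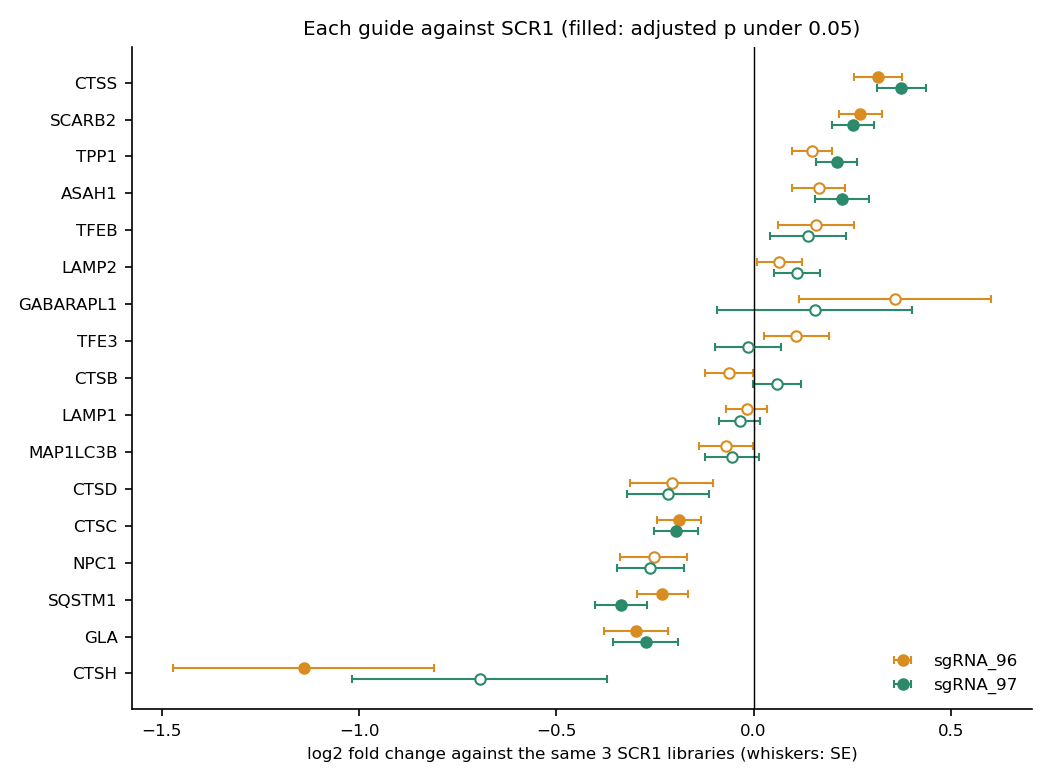
Log2 fold change of sgRNA_96 (orange) and sgRNA_97 (green) against the same 3 SCR1 libraries for the 9 genes past the threshold in enhancer KO and 8 further named genes; whiskers are SE and filled points have an adjusted p under 0.05. The whiskers of both guides overlap or meet in every gene, and CTSH has the widest.

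On the scale of TPM, which scales each library to a total of 1000000 and corrects for transcript length and so allows genes to be set beside each other, PSAP was the most abundant of the 42 genes in SCR1 at 193 ± 13.1 TPM (SD, n = 3). CD63 at 142 ± 14.5, PPT1 at 123 ± 5.75, GRN at 103 ± 2.23 and NPC2 at 81.4 ± 6.01 TPM followed. CD63 and PPT1 overlapped in their libraries, and no other neighbours among these 5 genes did. CTSC (67.1 ± 3.72), SQSTM1 (66.8 ± 4.53), ATP6V0D1 (61.7 ± 4.39) and MAP1LC3B (61.0 ± 3.92) formed a group within each other's spread, as did GUSB, HEXA, LAMP2 and LAMP1 between 47.0 and 49.3 TPM. TFEB stood at 26.3 ± 1.33 TPM and TFE3 at 11.3 ± 0.898, with no overlap between them. At the lower end were CTSH (2.61 ± 0.483), GABARAPL1 (2.10 ± 0.555), SMPD1 (0.601 ± 0.0585), CD68 (0.208 ± 0.107) and MITF (0.0722 ± 0.0837). In enhancer KO the order began with the same 5 genes, PSAP at 216 ± 7.57 TPM (SD, n = 6), CD63 at 132 ± 7.60, PPT1 at 113 ± 6.79, GRN at 105 ± 6.50 and NPC2 at 80.7 ± 3.48. On this scale PSAP did not overlap, with 178 to 202 TPM in SCR1 and 209 to 228 TPM in KO, whereas its CPM did. Neither limma on log2(TPM + 1) (0.16, adjusted p = 0.158) nor edgeR with an effective length offset (0.16, adjusted p = 0.0677) called it.

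**Figure D4:**
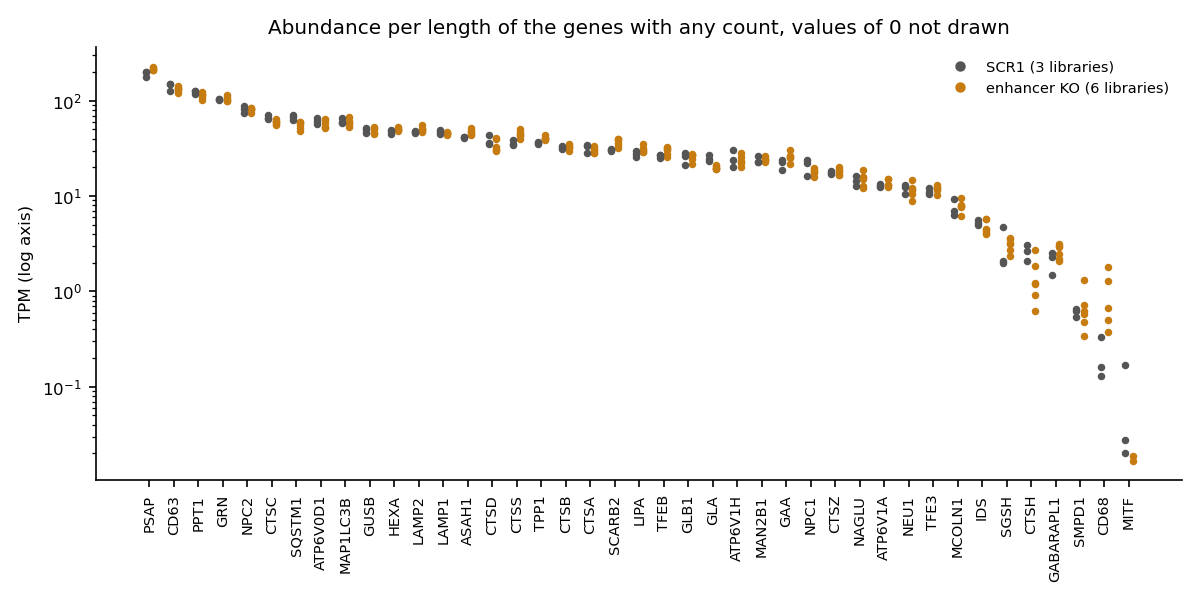
TPM per library, on a log axis, of the 41 genes with any count, in order of their SCR1 mean; grey points are SCR1 libraries and orange points enhancer KO libraries, and values of 0 are not drawn. Levels run from above 190 TPM for PSAP to below 1 TPM for SMPD1, CD68 and MITF, and points of the groups lie close together except in the rarest genes.

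Transcripts were examined as shares of each gene's TPM, with no test. The share held by the most abundant transcript was without overlap between KO and SCR1 in CTSZ and NPC2, 2 of 39 genes (5.13%), beside 3.24% of all genes with such a share. CTSZ-201 held 71.0 to 89.4% of CTSZ in SCR1 and 34.2 to 59.9% in KO. NPC2-207 differed the other way, with 77.1 to 82.1% in SCR1 and 82.9 to 94.2% in KO. In CTSB the second transcript, CTSB-204, held 0 to 5.46% in SCR1 and 12.7 to 28.5% in KO, beside a log2 fold change of 0.00 for the whole gene. Other transcripts below the leading one were also without overlap. LAMP2-201 held at most 6.81% in SCR1 and at least 7.06% in KO, and TFEB-218 at most 6.02% and at least 6.23%. The share of all genes given above covers leading transcripts only, so it is no background for these. LAMP2-202 led LAMP2 with 69.0% in SCR1 and 67.2% in KO on average, and LAMP1-201 held at least 91.6% of LAMP1 in every library. The transcripts of TFEB were divided differently in almost every library, the leading TFEB-213 taking 3.91 to 64.5% in SCR1 and 0 to 42.4% in KO. Over the 39 genes the share of the leading transcript spanned a median of 24.4 percentage points across libraries, and such shares rest on how Salmon divided shared reads.

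The wider machinery was described with 161 further genes in 9 lists, of which 147 could be tested. Of these, 17 were higher and 9 lower in enhancer KO (17.7%, beside the 20.7% of all genes given above). By number, other membrane proteins of the lysosome held the most, with 7 higher and 1 lower of 20 tested (40%, below the 50% of the 6 other proteases) and a median log2 fold change of 0.16 against 0.00 over all genes. The 3 with the largest change were SIDT2, a nucleic acid transporter (7.15 ± 1.20 CPM in SCR1 and 11.7 ± 0.984 CPM in KO, SD, log2 fold change 0.69), TPCN1, a cation channel (0.46), and TMEM106B (0.38). CLCN7, the chloride exchanger that supports acidification, LAPTM5, a protein of hematopoietic lysosomes, MFSD8 and SLC17A5 also rose and LAPTM4B fell, named here after their values were seen. LAPTM5 stood at 1008 ± 44.1 CPM in SCR1 and 1227 ± 24.9 CPM in KO (log2 fold change 0.28, adjusted p = 8.03e-05).

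Among 6 other proteases CTSO, a cysteine cathepsin, rose at a low level from 1.02 ± 0.151 to 2.39 ± 0.497 CPM (log2 fold change 1.21 ± 0.26 SE, adjusted p = 0.00391), and the carboxypeptidases SCPEP1 (-0.32) and PRCP (-0.28) fell. Of 15 other hydrolases RNASET2, an acid ribonuclease, rose from 59.2 ± 3.62 to 84.2 ± 6.91 CPM (0.51 ± 0.07 SE, adjusted p = 7.43e-05), HGSNAT rose (0.23) and GGH, which trims folate polyglutamates, fell (-0.25). IDUA, the iduronidase of dermatan and heparan sulfate breakdown, was the only one of 9 other glycosidases to pass (0.54). CTSO, RNASET2, SIDT2, CLCN7 and LAPTM5 were called in all 17 alternatives, TPM included, which no gene of the 42 was.

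Of 15 other V-ATPase subunits, ATP6V0C (-0.31) and ATP6V0E2 (-0.28), both of the membrane sector, fell and none rose. Among 18 genes of delivery, GNPTAB, which makes the mannose 6-phosphate tag, rose (0.28) and AP1M1, an adaptor subunit, fell (-0.19). Among 22 genes of mTORC1 signalling at the lysosome, FNIP1 (0.27) and TSC1 (0.18), a brake on mTORC1, rose and LAMTOR1 (-0.24), which anchors the Ragulator complex, fell. Of 32 core autophagy genes, EPG5 (0.20) rose and ATG3 (-0.14) fell, 6.25% of the list, and of 10 autophagy receptors the mitophagy receptor BNIP3L and the ER-phagy receptor RETREG1 rose, both by 0.30 on the log2 scale.

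**Figure D5:**
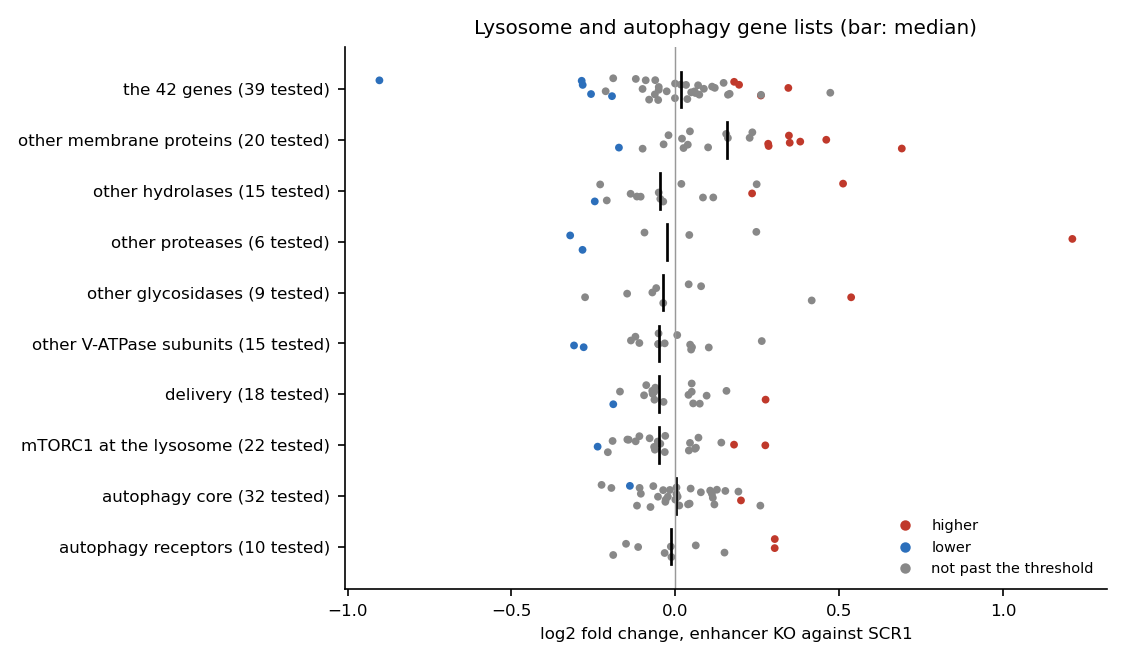
Log2 fold change of enhancer KO against SCR1 for every tested gene of the 42 and of the 9 further lists; each point is a gene, red and blue mark an adjusted p under 0.05 and the black bar is the list median. The median of other membrane proteins is 0.16, and those of the other rows lie between -0.05 and 0.02.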

How the data were processed

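Poly(A) RNA from 9 libraries of HAL-01 cells was sequenced, with groups as the sample titles give them. Per the study's methods and the submitters' processing notes, the authors used STAR with hg38 for alignment and Salmon 1.10.1 to quantify transcripts. They deposited estimated counts per transcript, without normalization, and TPM, which the authors' Salmon run scaled to a fixed total. Of the deposited estimated counts above 0, 87.8% were not whole. All 252835 transcripts matched GENCODE release 44. The 42 genes, the lists and the tests were chosen with earlier results of these data known.

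Counts were summed per gene and rounded, filtered with filterByExpr (minimum count 10) and scaled by TMM. Tests were quasi-likelihood F tests (edgeR 4.0.16, R 4.3.3), and p-values were adjusted by Benjamini-Hochberg across 14436 genes. KO pooled both guides; a fit with 3 groups gave each guide against SCR1 and the guides against each other. The common biological coefficient of variation was 0.0724. CPM are counts over the TMM-scaled library size. TPM were summed per gene. DESeq2 1.42.0, limma 3.58.1 on log2(TPM + 1), an effective length offset, other scaling, no filter, a replicate block and leaving out each library were alternatives. The genes past the threshold are given by each SCR1 value and by the range and median of the KO libraries. So are TFEB, TFE3, LAMP1, LAMP2, CTSD, CTSB, SQSTM1, GABARAPL1 and MAP1LC3B, and MITF is given by its counts. For other lists up to 3 called genes of largest change with a mean CPM of at least 1 are named. The tests were run on simulated counts in which the changed genes moved further than any of the 39 tested genes did. Recovery of changes as small as those given here was therefore not checked.

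Between replicates the chi-square was 4.23 to 8.26 times that of pure sampling, so no library was a copy of another. Whether replicates were separate cultures was not given in the sources used here, so p-values measure the spread between these libraries. Salmon divides reads shared by overlapping or near-identical transcripts, and use of strand was not stated. Among the genes past the threshold, CTSS and CTSH overlap no other annotated gene. TPP1 and NPC1 overlap genes on both strands, and CTSC, GLA, SCARB2, ASAH1 and SQSTM1 on the other strand only. The part of these overlaps in the calls was not tested.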

Additional observations from a re-analysis of the deposited data

Results flagged for a closer look

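In 40 values checked among the 6 KO libraries, 1 library stood apart in 2 values, and 2 are what chance gives at this limit. SCARB2 stood at 99.7 CPM in sgRNA_97 replicate 4, below the 107 to 110.5 CPM of the other KO libraries and above every control. MEF2C stood at 553 CPM in sgRNA_97 replicate 1, where the other KO libraries lay at 495 to 510.1 CPM, and that library alone lay within the range of the controls.

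CTSB and NPC2 lay on opposite sides of the control mean with the 2 guides, as did TFE3, IDS and GRN. The other 34 of the 39 genes tested had the same sign with both. The log2 difference of sgRNA_97 from sgRNA_96 was 0.12 for CTSB, with a 95% interval from -0.01 to 0.25, and 0.10 for NPC2, with an interval from -0.05 to 0.24. Neither difference passed the threshold when tested directly in edgeR (adjusted p = 1.00 for both). For TFE3 the difference was -0.12, with an interval from -0.30 to 0.06, for IDS -0.04 and for GRN 0.02. These did not pass either.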

How the results depend on the processing

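No call of the 42 genes changed direction under any of the 17 alternatives. RLE scaling and the replicate block called the same 9 genes. The replicate numbers did not pair the libraries: deviations from the group means of same-numbered libraries correlated at -0.07 to 0.06, and with the replicate block the genes called over all genes were 2936 in KO and 1 between the guides (3 without it). DESeq2 added SGSH to the 9 genes, the fit with no filter added CTSD, an effective length offset left 4 (2 higher, 2 lower), and limma on log2(TPM + 1), on log2(TPM + 0.1) and without a filter left 0 higher and 1 lower. Counts per library were low in CTSH (18 to 87), SGSH (65 to 128), SMPD1 (9 to 27) and GABARAPL1 (42 to 93), and leaving out SCR1 replicate 1, the deepest library, lost 5 of the 9 calls. The cause of the losses was not tested.

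With the length offset, TPM + 1, TPM + 0.1 and TPM + 1 without a filter in turn, all genes called were 1524, 844, 782 and 700 in KO against 2984, 662, 237, 188 and 179 with sgRNA_96 against 1615, and 924, 331, 244 and 299 with sgRNA_97 against 2181. Genes called of the 42 were then 1, 0, 0 and 0 with each guide, against 6 and 7, and of the further lists 11, 5, 5 and 5 against 26. Between the guides, edgeR without a filter called 106 genes, DESeq2 8, the length offset 1, and limma 0 on log2(TPM + 1) and 1 without a filter.

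Leaving out 1 library gave 1503 (without SCR1 replicate 1) to 3547 genes in KO, 760 to 2027 with sgRNA_96, 987 to 2501 with sgRNA_97 and 1 to 5 between the guides. The genes of the 42 then numbered 4 to 11 in KO, 3 to 5 higher and 1 to 6 lower, 2 to 6 with sgRNA_96 and 4 to 8 with sgRNA_97, and the further lists 16 to 31. Without SCR1 replicate 1, sgRNA_96 replicate 3 and sgRNA_96 replicate 4 the count with sgRNA_96 was 2, 2 and 3. With sgRNA_97 it was 4 without SCR1 replicate 1, SCR1 replicate 3, sgRNA_97 replicate 3 or sgRNA_97 replicate 4. MEF2C passed in DESeq2 (-0.12, adjusted p = 0.0206) and without sgRNA_97 replicate 1 (-0.14, adjusted p = 0.0143), and its estimate ran from -0.14 to -0.11 without 1 library.

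Signs turned only in genes that did not pass, whose log2 fold changes as first given ran from -0.19 (SMPD1) to 0.07 (GAA). With the length offset, TPM + 1 (with or without a filter) and TPM + 0.1, the log2 fold changes became 0.00862, 0.0124 and 0.0127 for CTSB, 0.0435, 0.0419 and 0.0439 for CTSZ, 0.0263, 0.0323 and 0.0336 for GLB1, -0.151, -0.127 and -0.151 for IDS, 0.167, 0.0473 and 0.0569 for SMPD1, -0.0129, -0.00979 and -0.00988 for NPC2, 0.0182, 0.0190 and 0.0191 for GRN, and -0.0705, -0.0507 and -0.0521 for ATP6V1H. GRN became 1.68e-05 with the replicate block. Without 1 library the estimates ran from -0.147 to 0.00296 for CTSA, -0.0388 to 0.0219 for CTSB, -6.75e-05 to 0.112 for GAA, -0.162 to 0.0399 for NEU1, -0.0183 to 0.0597 for IDS, -0.0110 to 0.0752 for NPC2, -0.0290 to 0.0275 for GRN and -0.0212 to 0.126 for ATP6V1H.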
